A study of Rattus norvegicus with 13 samples.

Results

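The Ikaros zinc finger family comprises the transcription factors encoded by *Ikzf1* (Ikaros), *Ikzf2* (Helios), *Ikzf3* (Aiolos), *Ikzf4* (Eos) and *Ikzf5* (Pegasus). The members were taken by gene name from the normalized counts of microdissected rat ventricular zone (VZ), and where a name had more than 1 row the one with the highest mean was to be used. Of the 5 names, 4 had a row, and each had exactly 1, among 13129 gene names in 14716 rows. The rows are those of transcripts ENSRNOT00000097538 (*Ikzf1*), ENSRNOT00000057849 (*Ikzf2*), ENSRNOT00000019738 (*Ikzf4*) and ENSRNOT00000035531 (*Ikzf5*). *Ikzf3* was not analysed here. The family was selected on the PTU versus control differences of these same pups, which were already in view, so the differences between groups given for its members are a description and support nothing on their own.

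The tissue was the posterior VZ, the progenitor layer next to the ventricle, captured by laser from male Long Evans pups on postnatal day 2. The control group was 7 euthyroid pups whose dams drank water with 0 ppm propylthiouracil (PTU), and the exposed group was 6 hypothyroid pups whose dams drank 3 ppm PTU during pregnancy and lactation. PTU inhibits thyroid hormone synthesis, and the comparison asks which VZ transcripts differ when thyroid hormone is low. Each pup came from a different litter and is 1 replicate.

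Ikaros proteins bind DNA through a group of zinc fingers near the amino terminus and pair with one another through a separate pair of fingers at the other end, so that members can act as mixed complexes. They repress or activate genes by recruiting chromatin complexes such as NuRD and Sin3, and are best known from lymphocytes, where *Ikzf1* is needed for lymphoid development and *Ikzf2* and *Ikzf4* are active in regulatory T cells. In the nervous system, Ikaros has been linked to the early competence of progenitors in the retina and cortex, and Helios to the maturation of striatal projection neurons. *Ikzf5* is the most divergent member.

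The values are read counts estimated by the authors and divided by a size factor per pup, here called normalized counts. The estimated depth was 22295878 to 43513442 reads in control pups and 28415198 to 44389037 in PTU exposed pups. The 3 highest rows, all without a gene name, took 32.4 to 60.1% of the reads in control pups and 23.9 to 57.0% in PTU exposed pups. All 10 radial glia markers listed had a row, with a summed level of 75130 to 104572 normalized counts in control pups, so the progenitor markers of the labelled tissue were present. Of 14 leukocyte markers 3 had a row (*Ptprc*, *Lck* and *Spi1*), and their summed level was 142 to 317 in control pups and 201 to 356 in PTU exposed pups. Normalized counts are not divided by transcript length, so levels were compared between pups and not between genes.

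*Ikzf4* was the member whose groups did not overlap. In the 7 control pups its row held 537 normalized counts in the lowest, 654 at the median and 779 in the highest. In the 6 PTU exposed pups it held 840 in the lowest, 1044 at the median and 1315 in the highest. All 6 PTU exposed pups therefore lay above all 7 control pups, and 0.335% of the 14606 rows tested had groups apart in that direction, 0.26% in the other and 0.596% in either. The mean was 648 ± 78.2 in the control group (SD, n = 7) and 1072 ± 216 in the PTU exposed group (SD, n = 6), a log2 fold change of 0.71 (SE 0.13) and a fold of 1.64 with a 95% interval of 1.36 to 1.97. Fold changes are on the scale of log2(normalized count + 1). With p-values adjusted over all 14606 rows by the Benjamini-Hochberg procedure in limma, *Ikzf4* had an adjusted p of 0.108 and did not pass the threshold of 0.05. Leaving out PTU exposed pup 2 or control pup 6 took its adjusted p to 0.0252 or 0.0489, and the range over all alternatives was 0.0252 to 0.400. Its unadjusted p in limma was 2.96e-05 with all pups, 2.70e-05 without PTU exposed pup 2 and 2.12e-05 without control pup 6. Without PTU exposed pup 6 it was lower, 1.37e-05, yet the adjusted p was 0.130. The adjusted p thus also moved with the p-values of other rows.

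In limma 0 of the 4 members and 0 of the 14606 rows (0.0%) passed the adjusted threshold. The paper did report differentially expressed genes in the same pups at an FDR of at most 0.05, using DESeq2, so the count depends on the method. At an unadjusted p under 0.05 there were 2383 rows (16.3%), of which 1185 were higher (8.11% of rows) and 1198 lower (8.2%) in PTU exposed pups. *Ikzf4* was the 1 member among these 2383 rows. After scaling to equal totals the split was 1585 higher (10.8%) and 81 lower (0.554%) of 14617 rows, with *Ikzf4* and *Ikzf1* among the higher rows. In a bulk sample, fewer cells of a type and less RNA per cell cannot be told apart, and the same holds for more of either.

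**Figure D1:**
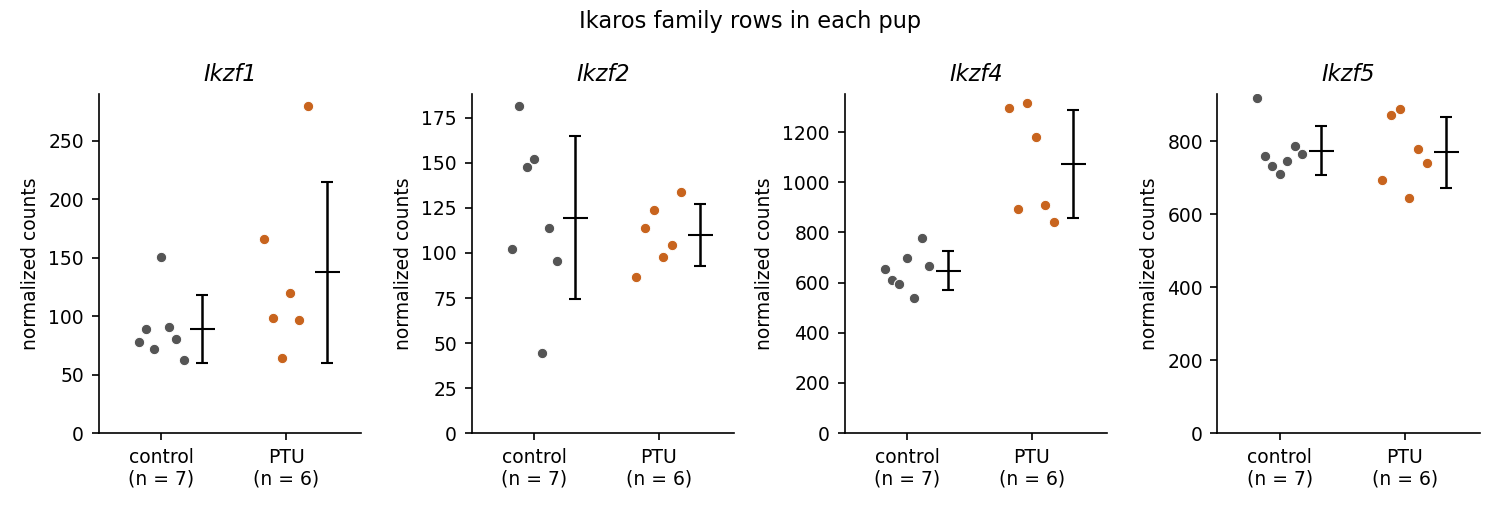
Normalized counts (y axis, linear from 0, separate scale for each gene) of the 4 measured family members in each control pup (grey, n = 7) and each PTU exposed pup (orange, n = 6), with the mean and SD as a black bar beside the points. The groups are apart for *Ikzf4*, where the highest control is 779 and the lowest PTU exposed pup 840, and overlap for *Ikzf1*, *Ikzf2* and *Ikzf5*.

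*Ikzf1*, the founding member, was measured at low counts and varied most between PTU exposed pups. Its row held 62.8, 80.6 and 151 normalized counts in the lowest, median and highest control pup, and 64.2, 109 and 280 after PTU. Of the PTU exposed pups, 5 of 6 lay above the control mean and 2 above the highest control. The coefficient of variation was 32.3% in controls and 56.2% after PTU, against 12.1 and 20.1% for *Ikzf4*. The means were 89.1 ± 28.8 (SD, n = 7) and 138 ± 77.3 (SD, n = 6), a log2 fold change of 0.51 (SE 0.30) with a 95% interval of -0.12 to 1.13, and an adjusted p of 0.399 in limma. The interval holds both no difference and a fold as large as that of *Ikzf4*. Without PTU exposed pup 6, the highest pup, the log2 fold change was 0.27, and without PTU exposed pup 3, the lowest of its group, it was 0.69.

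*Ikzf2* differed by less than the spread among pups. The lowest, median and highest control pups held 44.5, 114 and 182 normalized counts, and the PTU exposed pups 86.8, 109 and 134. All 6 PTU exposed pups thus lay within the range of the controls, which were the more scattered group with a coefficient of variation of 37.7% against 15.6%. The log2 fold change was -0.02 (SE 0.27, 95% interval -0.59 to 0.55, adjusted p = 0.975 in limma). Without control pup 5, the lowest pup, it was -0.24, and without control pup 2, the highest, it was 0.10, so no direction is given for this gene. After equalising the totals of the pups it was 0.18, where the median of all rows was 0.20.

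*Ikzf5* was the steadiest member. Its row held 711, 759 and 916 normalized counts in the lowest, median and highest control pup and 643, 759 and 887 after PTU. The medians of the groups were alike and the ranges overlapped, with coefficients of variation of 8.71 and 12.7%. The log2 fold change was -0.01 (SE 0.10, adjusted p = 0.954 in limma), and its 95% interval corresponds to a fold of 0.856 to 1.14. Of the 4 members it was the one with the narrowest interval, and the 1.64-fold difference seen in *Ikzf4* lies outside it.

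**Figure D2:**
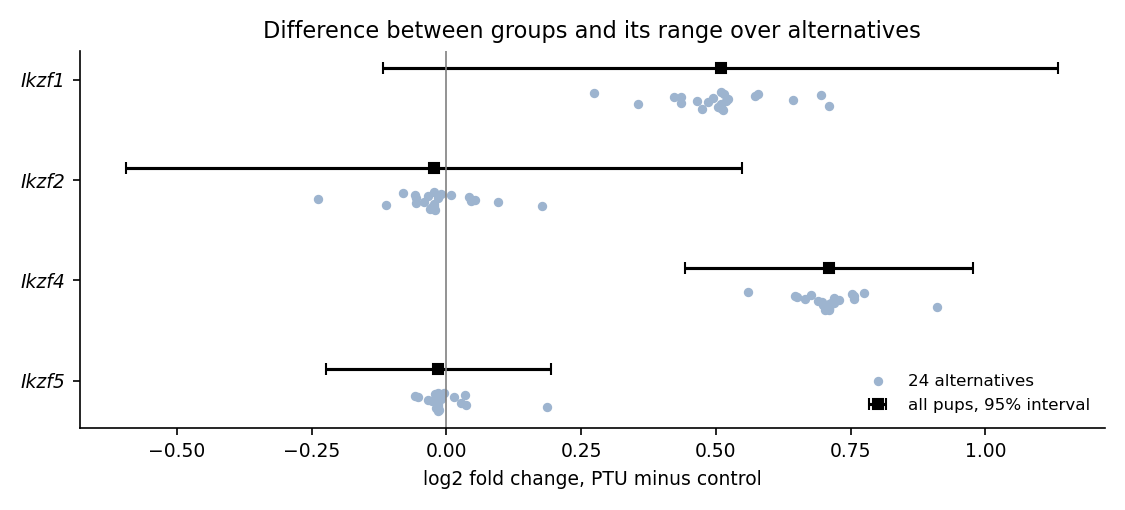
Log2 fold change, PTU minus control (x axis), of each member (y axis) with its 95% interval from the fit on all pups (black squares and bars) and the values under 24 alternative settings or with 1 pup left out (blue points). Points for *Ikzf4* run from 0.56 to 0.91 and those for *Ikzf1* from 0.27 to 0.71, while those for *Ikzf2* and *Ikzf5* fall on both sides of 0.

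The scaling of a pup cancels from a ratio of 2 members within it, apart from the 1 added to each normalized count, so the 6 log2 ratios of (normalized count + 1) among the 4 members were examined as well. The log2 ratio of *Ikzf4* to *Ikzf5* was -0.49 to -0.01 in control pups (mean -0.26 ± 0.19, SD, n = 7) and 0.04 to 0.90 in PTU exposed pups (mean 0.46 ± 0.37, SD, n = 6). The groups did not overlap and the means differed by 0.72. The log2 ratio of *Ikzf4* to *Ikzf2* differed by 0.73, with 2 of 6 PTU exposed pups above the highest control. The log2 ratio of *Ikzf4* to *Ikzf1* differed by 0.20, and its control range of 2.20 to 3.39 lay within the 1.58 to 4.33 of the PTU exposed pups. The remaining ratios differed by 0.53 (*Ikzf1* to *Ikzf2*), 0.52 (*Ikzf1* to *Ikzf5*) and -0.01 (*Ikzf2* to *Ikzf5*), each with overlapping groups. Without PTU exposed pup 6 the ratios of *Ikzf1* to *Ikzf2* and to *Ikzf5* differed by 0.35 and 0.28. Since all of these use the values by which the family was picked, no test is attached to them.

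**Figure D3:**
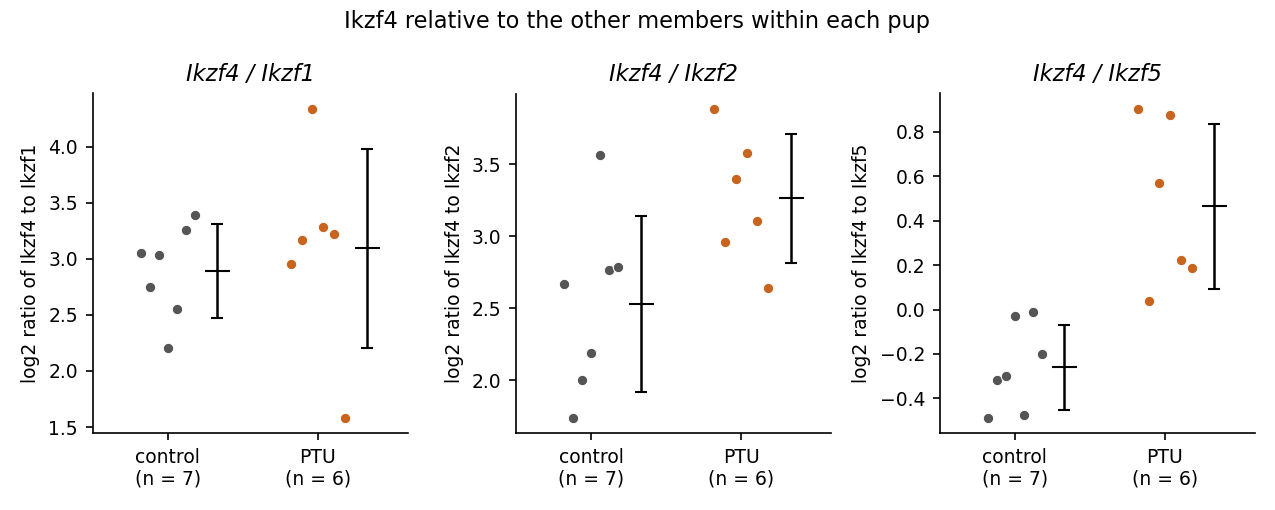
Log2 ratio of *Ikzf4* to *Ikzf1*, *Ikzf2* and *Ikzf5* within each pup (y axis, separate scale for each panel) in control (grey, n = 7) and PTU exposed pups (orange, n = 6), with mean and SD. Only the ratio to *Ikzf5* separates the groups, from a highest control of -0.01 to a lowest PTU exposed pup of 0.04. With the row that shares reads with *Ikzf4*, described below, added to it, these groups overlap too.

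The *Ikzf4* row differed from the other members in how its reads were counted. Dividing each value by the amount that 1 read is worth in that pup gave whole numbers of reads, within 0.02 of a read, for *Ikzf1* (61 to 347 reads), *Ikzf2* (48 to 166) and *Ikzf5* (524 to 1119) in 13 of 13 pups. For *Ikzf4* (463 to 1659 reads) it gave a whole number in 0 of 13 pups. Among 5948 rows with a mean of 300 to 1500 normalized counts, 89.2% were whole in every pup and 4.74% in none. The quantification used by the authors divides a read that matches several transcripts among them, which leaves fractions of reads.

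Of 2150 other rows with fractional reads, exactly 1 added to *Ikzf4* gave whole numbers in 13 of 13 pups. It is the row of transcript ENSRNOT00000051134, which carries no gene name in the deposited table and is called the unnamed row here. It was singled out after the values were seen. The *Ikzf4* value therefore holds reads split with the unnamed row, but how many were split is not known. The sum of both rows is called the pool here. *Ikzf4* was 39.0% ± 5.4 (SD, n = 7) of the pool in control pups and 43.8% ± 10.1 (SD, n = 6) after PTU. The share ranged from 31.3 to 45.0% in controls and from 32.9 to 57.0% after PTU, so the groups overlapped.

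The pool itself was 1391 to 1849 normalized counts in control pups and 1825 to 3583 in PTU exposed pups. Of the PTU exposed pups, 5 of 6 lay above the highest control, and 1 lay within the control range. The mean of the pool was 1677 ± 183 (SD, n = 7) and 2518 ± 619 (SD, n = 6), a log2 fold change of 0.56 (SE 0.13) and a fold of 1.47 (adjusted p = 0.122 in limma). The unnamed row alone held 782 to 1255 normalized counts in controls and 930 to 2404 after PTU, with overlapping groups and a log2 fold change of 0.42 (SE 0.19, adjusted p = 0.292). The pool includes the *Ikzf4* value, so it was bound in part to be larger where that value was higher. Since the number of split reads is not known, how much of the *Ikzf4* value depends on the split cannot be told from these values.

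**Figure D4:**
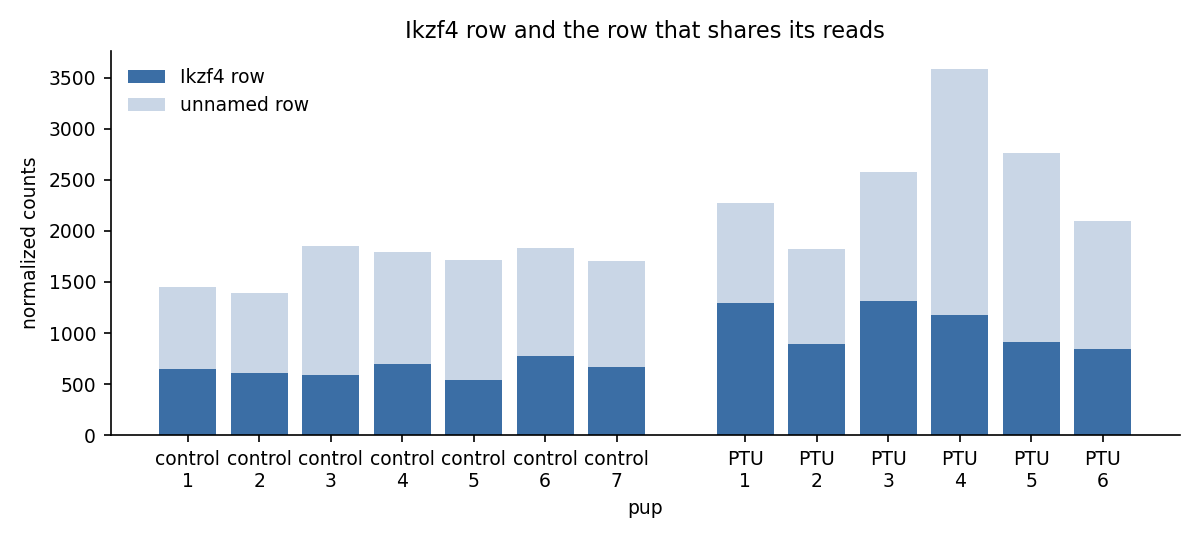
Normalized counts (y axis, linear from 0) of the *Ikzf4* row (dark blue) and of the unnamed row that shares reads with it (light blue), stacked, in each of 7 control and 6 PTU exposed pups (x axis). The stacked total is 1391 to 1849 in controls and 1825 to 3583 after PTU, and the dark part is 32.9 to 57.0% of it after PTU.

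The genes beside the members were looked up by name in the RefSeq annotation of GRCr8, a later rat assembly than the mRatBN7.2 used for the alignment. The annotated span of *Ikzf4* overlaps that of *Rps26*, a small ribosomal subunit protein gene, by 26 bases, and no row bears that name. *Suox*, which encodes sulfite oxidase and lies next to *Ikzf4*, had a log2 fold change of -0.12 (SE 0.12, adjusted p = 0.629 in limma). *Fignl1* beside *Ikzf1* had 0.17 (SE 0.27), and *Pstk* and *Acadsb* on either side of *Ikzf5* had -0.26 (SE 0.22) and 0.15 (SE 0.18). None of these 4 neighbours passed the threshold.

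Genes of the chromatin complexes that Ikaros proteins recruit were measured in the VZ. Of 18 corepressor genes listed, 17 had a row (all but *Rbbp7*), 10 with a point estimate above 0 and 7 below (14 and 3 at equal totals), and 0 were called. The median log2 fold change was 0.04, against 0.00 over all rows tested. An unadjusted p under 0.05 was found for 3 of the 17, which is near the 16.3% of all rows. *Sin3b*, a scaffold of the Sin3 complex, stood at 2381 ± 218 normalized counts in the control group (SD, n = 7) and 2816 ± 264 in the exposed group (SD, n = 6), a log2 fold change of 0.24 (SE 0.08, adjusted p = 0.18 in limma). *Chd4*, the main remodelling ATPase of NuRD, was 15629 ± 1817 in controls against 13367 ± 1025, or -0.22 on the log2 scale (SE 0.09, adjusted p = 0.247). *Mta2*, another NuRD subunit, was 3306 ± 414 in controls against 2820 ± 278, or -0.23 on the log2 scale (SE 0.09, adjusted p = 0.244).

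The 2 genes of highest mean among the rest of that list were *Chd3*, an alternative NuRD ATPase, at 0.22 (SE 0.14), and *Smarca4*, the ATPase of the BAF complex, at 0.17 (SE 0.08). When the totals of the pups were made equal, which raised the median of all rows by 0.20, *Chd4* and *Mta2* came to -0.02 each and *Sin3b* to 0.44.

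The cereblon ubiquitin ligase, through which thalidomide analogues mark Ikaros and Aiolos for degradation, had rows for all 5 listed subunits. All 5 point estimates were below 0, with a median log2 fold change of -0.03 and a smallest adjusted p of 0.633 in limma. *Ddb1*, the adaptor, was at -0.08 (SE 0.07) and *Cul4a*, the scaffold, at -0.01 (SE 0.09). The summed level of the ligase was 13687 to 14874 normalized counts in controls and 12571 to 14773 after PTU, and the groups overlapped. At equal totals the list's median was 0.17 and that of all rows 0.20, against -0.03 and 0.00 as deposited. The sign thus depends on the scaling, while the list's median lay just below that of all rows under both. With 1 pup left out the list's median was -0.052 to -0.0028.

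Factors that, like Ikaros, are tied to the temporal identity of neural progenitors had rows for 5 of 7 genes listed, with no row for *Lin28a* and *Lin28b*. Of the 5, 3 had estimates above 0 and 2 below, the median log2 fold change was 0.09, and the smallest adjusted p was 0.532 in limma. The median was 0.29 at equal totals and -0.0056 to 0.19 with 1 pup left out, below 0 without control pup 6. *Pou2f1* was at 0.16 (SE 0.12) and *Casz1*, a zinc finger factor that follows Ikaros in retinal progenitors, at 0.09 (SE 0.22).

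**Figure D5:**
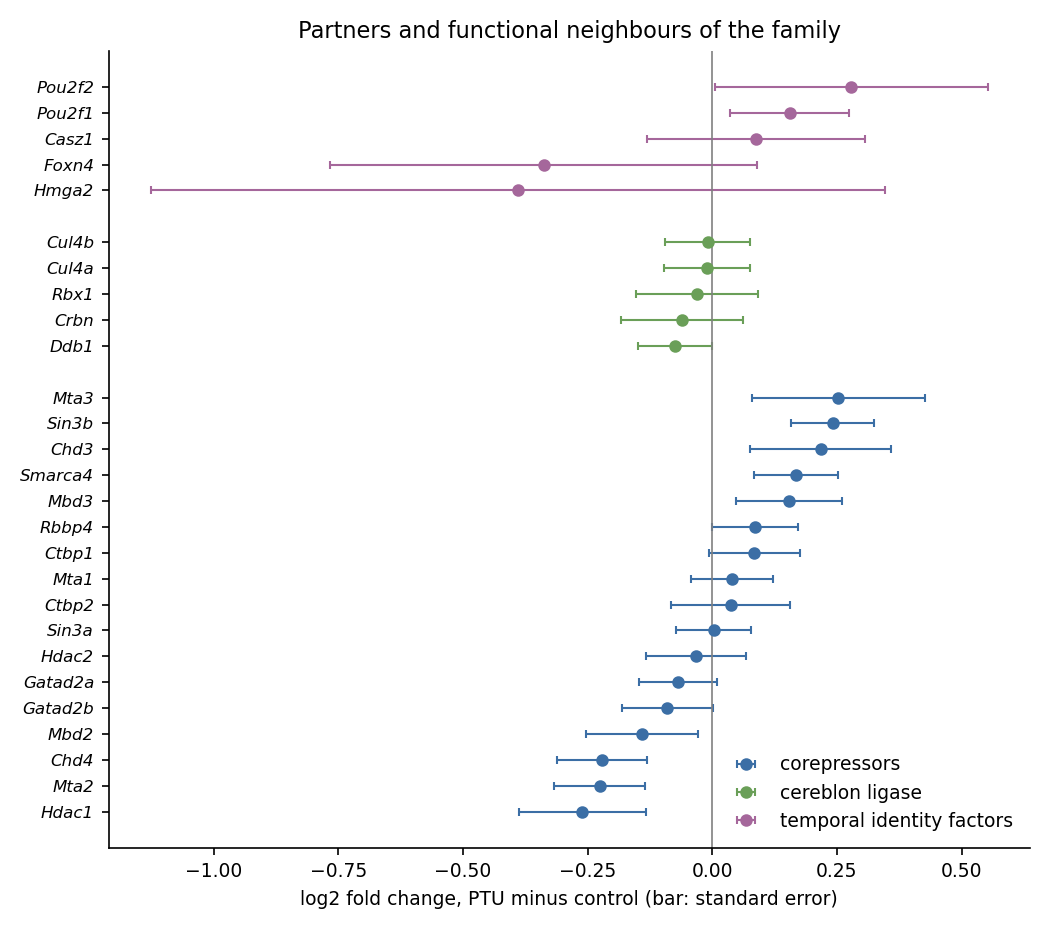
Log2 fold change, PTU minus control (x axis, bars show the standard error), of 17 corepressor genes (blue), 5 cereblon ligase subunits (green) and 5 temporal identity factors (purple), ordered within each list. The corepressor genes lie on both sides of 0 with a median of 0.04 (14 of 17 lie above 0 at equal totals), and no gene shown passed the adjusted threshold.

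Summed levels of cell type marker lists overlapped between the groups in every list given here with its sums, and their values stand beside the *Ikzf4* difference as follows. All 10 radial glia markers had estimates below 0 (median -0.33, 6 with an unadjusted p under 0.05), and their sum was 75130 to 104572 in controls and 62176 to 82649 after PTU. Of 12 neuron markers 9 had estimates above 0 (median 0.32, 5 with an unadjusted p under 0.05), with a sum of 56646 to 81030 and 72206 to 125561. All 6 choroid plexus markers had estimates below 0 (median -0.72, 4 with an unadjusted p under 0.05), with a sum of 48337 to 136233 and 22409 to 96392. The largest part of that sum was *Ttr*, with a mean of 91587 in controls and 51490 after PTU. The paper states that choroid plexus cells were not part of the sequenced samples, and the source of these reads was not tested. At equal totals, the medians of these 3 lists were -0.12, 0.53 and -0.52, with 0, 5 and 2 markers at an unadjusted p under 0.05, and 1 radial glia marker had an estimate above 0. Over all rows, an unadjusted p under 0.05 was found for 8.11% higher and 8.2% lower as deposited, against 10.8% higher and 0.554% lower at equal totals, so a count of lower markers is not comparable between the scalings. None of these markers passed the adjusted threshold in limma under either scaling. The 10 microglia markers had a median of 0.09 and sums of 1734 to 2497 and 1833 to 2662, the 5 oligodendrocyte precursor markers a median of 0.24, the 5 intermediate progenitor markers -0.29, the 6 measured endothelial markers 0.25 and the 3 measured leukocyte markers 0.22. At equal totals these 5 medians were 0.29, 0.44, -0.09, 0.45 and 0.42 in the same order, with 2 of the 5 intermediate progenitor markers above 0. As deposited, an unadjusted p under 0.05 was found for 3 microglia markers, with log2 fold changes of -0.99 (*Itgam*), -0.50 (*C1qa*) and 0.40 (*Ctss*), and for *Eomes* of intermediate progenitors (-0.49) and *Cspg4* of oligodendrocyte precursors (0.36), but for 0 endothelial and 0 leukocyte markers. At equal totals it was found for 1 microglia, 2 oligodendrocyte precursor and 2 endothelial markers, all higher, and for 0 intermediate progenitor and 0 leukocyte markers.

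Whether a member followed a cell type from pup to pup was examined with values centred within each group, which leaves out the difference between groups. Over 13 pups, 32 relations between the 4 members and 8 lists were computed, and 0 passed the Benjamini-Hochberg adjustment. The relation with the largest Pearson's r in size is given for each member. For *Ikzf4* and the neuron list, Pearson's r was 0.49 (permutation p = 0.138, adjusted p = 0.678) and Spearman's rho 0.46 (permutation p = 0.147, adjusted p = 0.653), and r was 0.21 without the 2 pups farthest from the median of the list. Without the 2 farthest pups of each list, *Ikzf4* had r of -0.59 with radial glia and -0.60 with oligodendrocyte precursors, against -0.19 and -0.34 over all pups. For *Ikzf1* and the radial glia list, r was -0.74 (permutation p = 0.00589, adjusted p = 0.188) and rho -0.55 (permutation p = 0.0659, adjusted p = 0.653), and r was -0.37 without the 2 farthest pups. For *Ikzf2* and the oligodendrocyte precursor list, r was 0.66 (permutation p = 0.0218, adjusted p = 0.349) and rho 0.62 (permutation p = 0.0423, adjusted p = 0.653), and r was 0.58 without the 2 farthest pups. For *Ikzf5* and the radial glia list, r was 0.49 (permutation p = 0.112, adjusted p = 0.678) and rho 0.51 (permutation p = 0.0937, adjusted p = 0.653), and r was 0.47 without the 2 farthest pups. *Ikzf5* had a rho of -0.54 with the choroid plexus list, where r was -0.30 over all pups and -0.68 without the 2 farthest, and its r with the microglia list went from 0.34 to -0.45 without them. The part of these cell types in the differences between groups was not tested.

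The rows whose levels ran most closely with each member within the groups were found among 11085 named rows with a mean of at least 100, as a description over 13 pups. For *Ikzf2* they were *Bcas1* (Pearson's r 0.91), *Cacng5* (0.90) and *Padi2* (0.89), of which *Bcas1* is known from oligodendrocytes that begin to make myelin and *Padi2* from the oligodendrocyte lineage. For *Ikzf1* they were *Zfp521* (0.84), a zinc finger factor of early neural progenitors, *Islr2* (0.82), a membrane protein of growing axons, and *Dpysl4* (0.81), a collapsin response mediator. For *Ikzf5* they were *Smarcad1* (0.92), a chromatin remodeller, *Btf3l4* (0.92) and *Nbn* (0.88), a DNA repair protein. For *Ikzf4* they were *AABR07009715.1* (0.88), *Lmbrd1* (0.85), a lysosomal cobalamin transport protein, and *Ccdc6* (0.83). The points share the same 13 libraries, and the highest of 11085 values is high by selection.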

How the data were processed

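Laser captured posterior VZ RNA of 7 control and 6 PTU exposed pups was sequenced after stranded total RNA library preparation. Per the methods and labels, reads were trimmed with Trimmomatic, aligned to mRatBN7.2 with STAR 2.7.8a, counted by the E/M model in Partek and scaled per pup by median ratio. As deposited, the values are a normalized signal, not raw counts. A table of the authors' DESeq2 comparison (p-value, FDR, ratio, fold change and group means) was not used. Every per-sample column was used.

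Rows with a mean of at least 10 (14606 of 14716) entered limma 3.58.1 in R 4.3.3 as log2(normalized count + 1), using empirical Bayes and a trend in the variance, and p-values were adjusted by Benjamini-Hochberg over all rows. Of the values from 20 to 150, 88.1 to 89.7% per pup were whole multiples of 1 read, under the 95% needed for a model of counts. Relations to marker lists used 100000 permutations within groups. Exact permutation tests of members and ratios were computed but are not quoted, since the family was chosen with this contrast in view. The members and gene lists were chosen with earlier results of these data known. Named list genes have an unadjusted p under 0.05 or are the 2 of highest mean beyond those. The neighbours and the unnamed row were chosen after values were seen. The limma fit was tested on simulated data. Python 3.11.15, pandas 2.3.3 and scipy 1.17.1 were also used.

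Alternatives were pseudocounts of 0.1 and 10, no filter or a mean of at least 100, TMM factors (unweighted), the same total per pup, rows of a gene summed, pups weighted by quality, the replicate number as a block, no trend in the variance, each pup left out in turn and, added after seeing the data, *Ikzf4* summed with the unnamed row. Replicate numbers belong to pups of different litters.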

Additional observations from a re-analysis of the deposited data

Results flagged for a closer look

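In 8 groups of pups (4 members in 2 groups), the highest or lowest pup was compared with the rest by Dixon's criterion, by which chance marks about 1 in 20 groups. Control pup 4 stood apart for *Ikzf1* with 151 normalized counts, against 90.9 in the next highest control, a gap of 0.68 of the group's range. Control pup 1 stood apart for *Ikzf5* with 916 normalized counts, against 786 in the next highest control, a gap of 0.63 of the range. *Ikzf4*, *Ikzf2* and the PTU exposed pups had no such value by this criterion.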

How the results depend on the processing

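*Ikzf4* and *Ikzf1* kept a positive log2 fold change under all 24 alternatives. For *Ikzf4* it was 0.70 with weighted pups (adjusted p = 0.0381 in limma), the setting besides the omission of control pup 6 or PTU exposed pup 2 that took it past the threshold, and 0.65 to 0.78 with 1 pup left out. Scaling to the same total gave 0.18 for *Ikzf2*, 0.19 for *Ikzf5* and list medians of 0.24 (corepressors) and 0.17 (cereblon ligase). Weighting gave 0.037 for *Ikzf5*. These values for both members have the opposite sign to the fit on all pups as deposited, but equal totals also raised the median of all rows to 0.20. With 1 pup left out, the ranges were 0.27 to 0.69 for *Ikzf1*, -0.24 to 0.10 for *Ikzf2* and -0.058 to 0.035 for *Ikzf5*. For the log2 ratios they were 0.60 to 0.90 (*Ikzf4* to *Ikzf2*), -0.048 to 0.50 (*Ikzf4* to *Ikzf1*, negative without PTU exposed pup 3), -0.22 to 0.11 (*Ikzf2* to *Ikzf5*), 0.64 to 0.81 (*Ikzf4* to *Ikzf5*), 0.35 to 0.76 (*Ikzf1* to *Ikzf2*) and 0.28 to 0.75 (*Ikzf1* to *Ikzf5*). Summed with the unnamed row, *Ikzf4* to *Ikzf2* was 0.58, *Ikzf4* to *Ikzf5* 0.57 and *Ikzf4* to *Ikzf1* 0.05. The summed ratio to *Ikzf5* overlapped between the groups. PTU exposed pup 2 held a sum of 1825 against 872 for *Ikzf5*, and control pup 3 held 1849 against 732. The causes were not tested.

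The count of called rows, 0 with all pups, was 40 with weighted pups and 0 to 179 with 1 pup left out (179 without PTU exposed pup 2, 7 without control pup 6). Blocking on the replicate number gave 18, and *Ikzf4* had 0.72 (adjusted p = 0.0533). Deviations of same-numbered pups, which come from different litters, correlated at -0.07 to 0.20, over 0.1 in 4 of 6 pairs. Of 12 pups, each set against 6 pups of the other group, 5 correlated best with their own number. The labels name no shared batch behind a number, and whether one exists was not tested. *Ikzf1* and *Ikzf2* rest on 48 to 347 reads per pup.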
